A study of Mus musculus with 2 samples.

Results

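Dnmt3b, Dnmt3l and Mbd2 are genes that write or read DNA methylation. They were picked by their symbols from a microarray of mouse cells, as 3 of the 11484 genes that the array named, and were selected on the difference between its samples that had already been seen: Dnmt3b and Dnmt3l were far brighter, and Mbd2 dimmer, in stem cells generated with a small molecule than in the cells they came from. Those differences are therefore a description and not a test. One sample was parental cells at passage 1, grown in medium with fetal bovine serum (FBS). The other was stem cells from the small-molecule treatment at passage 5, in medium for embryonic stem (ES) cells, and the design text appears to call them PEG cells. Both carried the labels embryo for the stage and C57/ICR for the strain, and neither the parental cell type nor the molecule is named in the labels. There was 1 sample per group, although the design text speaks of 3 replicates, so there is no replicate error and no test between the groups, and treatment, passage and medium cannot be told apart.

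Methylation of cytosine in CpG dinucleotides is set in the early embryo by the de novo methyltransferases DNMT3A and DNMT3B. DNMT3L belongs to the same family but has no catalytic activity, and it stimulates the active enzymes. Maintenance, by DNMT1 with UHRF1, copies the pattern after replication. MBD2 binds methylated CpG and brings the NuRD complex, which remodels nucleosomes and deacetylates histones, to those sites. ES cells are known for high levels of DNMT3B and DNMT3L, which decline as they differentiate.

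The annotated promoters of the genes that were brighter together are shown because methylation acts on CpG sites and their CpG content differs widely. Each stretch runs from 250 bases before to 50 bases after a transcription start in the RefSeq promoter table (build GRCm38.p6), in which 2 of the 3 genes were matched, and CpG dinucleotides are in capitals. The Dnmt3b start lies in chr2:153649199-153649498 on the plus strand, and the first of 3 listed Dnmt3l starts in chr10:78042037-78042336, also on the plus strand.
Dnmt3b: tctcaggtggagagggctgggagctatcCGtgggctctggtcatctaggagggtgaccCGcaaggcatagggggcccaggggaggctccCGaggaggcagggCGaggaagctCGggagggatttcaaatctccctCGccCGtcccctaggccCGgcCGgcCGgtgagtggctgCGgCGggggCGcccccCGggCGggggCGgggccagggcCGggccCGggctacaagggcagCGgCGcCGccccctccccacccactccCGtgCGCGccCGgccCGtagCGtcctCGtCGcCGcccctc
Dnmt3l start 1: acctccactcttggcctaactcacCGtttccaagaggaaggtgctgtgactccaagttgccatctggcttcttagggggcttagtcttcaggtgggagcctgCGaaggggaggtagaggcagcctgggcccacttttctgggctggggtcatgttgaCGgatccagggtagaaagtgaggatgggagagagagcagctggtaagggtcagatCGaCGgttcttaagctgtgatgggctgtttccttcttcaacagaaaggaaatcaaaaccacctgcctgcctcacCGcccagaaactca

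The Dnmt3b stretch held 30 CpG dinucleotides, and 11.7% of the 32851 promoters in the table held as many. Its observed CpG number over that expected from base composition was 0.694, and its GC content was 76.0%. Across the table the medians were 7 CpG dinucleotides, a ratio of 0.384 and 52.7% GC. The Dnmt3l stretches held 6, 4 and 3 CpG dinucleotides at starts 1, 2 and 3, with observed over expected ratios of 0.272, 0.219 and 0.114. All 3 of them lay below the table's medians for CpG number and ratio, start 1 only just by its CpG number. Their GC contents of 54.7%, 62.7% and 60.3% were above the median. The members that were brighter together thus had a CpG-rich start in 1 case and starts with fewer CpG than the median in the other. Which Dnmt3l start was in use was not measured.

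Motifs were searched on both strands. The GC box GGGCGG, the sequence that SP1 family factors bind, matched 4 times in the Dnmt3b stretch, and each match holds a CpG counted above. It matched 1, 2 and 0 times at Dnmt3l starts 1, 2 and 3, and 35.7% of all promoters held it. The octamer ATGCAAAT, bound by POU factors such as OCT4, had no match in any of the 4 stretches and was in 1.74% of all promoters. The ESRRB-type site TCAAGGTCA had no match either and was in 0.423%. These are matches of letters in a window of 300 bases and nothing more.

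**Figure D1:**
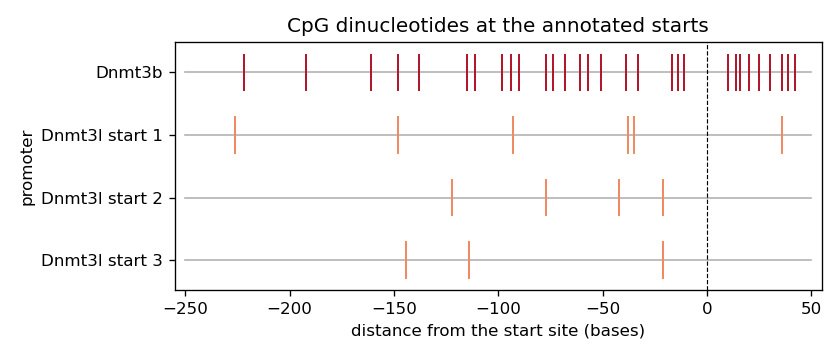
Position of each CpG dinucleotide (vertical tick) from 250 bases before to 50 bases after the annotated start (dashed line, 0) of Dnmt3b and of the 3 listed starts of Dnmt3l; the x axis is in bases. Dnmt3b has 30 ticks that crowd around the start, and the Dnmt3l starts have 6, 4 and 3.

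Intensities were read against a floor, the 25th percentile of all probes of the same sample, with values of 93.8 (parental) and 93.4 (stem). Dim genes, those not above the floor in either sample, get no fold. For a gene under it in 1 sample only, the fold is a bound that puts the floor in place of the dim value. Each of the 3 genes was read by 1 probe, which cannot separate splice forms, and Dnmt3b and Mbd2 are both known to have several. The only measure of error was the disagreement between probes of a gene: across 602 genes read by a pair of probes above the floor, log2 differences of single probes scattered around the mean of their gene with an SD of 1.05, which is 2.07-fold. That SD covers probes on the same arrays and not cultures.

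Dnmt3b, the de novo methyltransferase, had an intensity of 121 in the parental cells and 7089 in the stem cells. The parental value was 1.29 times the floor, so it was barely above it, while the stem value was 75.9 times the floor. The difference was 58.6-fold, or 5.87 on the log2 scale. Of 9766 genes that were not dim, 37 had a larger difference in the same direction. For comparison, 2159 of these genes (22.1%) were 2-fold or more higher in the stem cells and 2209 (22.6%) were 2-fold or more lower. The choice of the genes used this contrast, and nothing is read from their position in it.

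Dnmt3l, the cofactor, had an intensity of 36.7 in the parental cells and 5406 in the stem cells. The parental value was 0.391 times the floor, so no level above background could be assigned to it. The measured difference was 7.20 on the log2 scale, and the fold was at least 57.6 when the parental value was taken as the floor. With the floor in its place the log2 difference was 5.85, close to the 5.87 of Dnmt3b, and the apparent gap between the genes lay wholly under the floor. Without that bound, 8 genes had a larger difference in the same direction.

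Mbd2, the methyl-CpG reader, had an intensity of 2741 in the parental cells and 368 in the stem cells. Both values were above the floor, by 29.2 times and 3.93 times, so the gene was dimmer in the stem cells without reaching background. The difference was 7.46-fold, or -2.90 on the log2 scale. It was smaller than those of Dnmt3b and Dnmt3l, and 508 genes had a larger difference downwards.

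**Figure D2:**
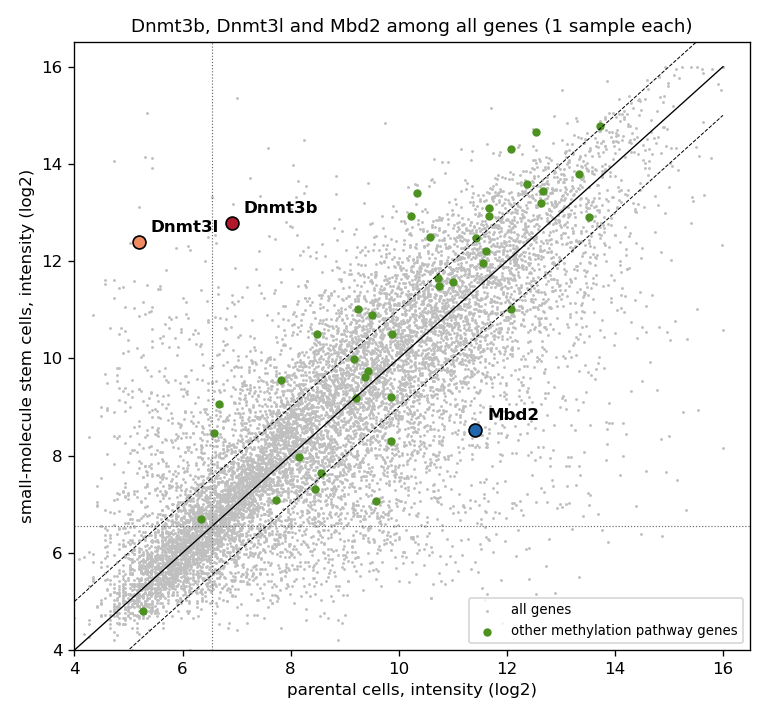
Log2 intensity of each of 11484 genes (grey) in the parental sample (x axis) and the small-molecule stem sample (y axis), with 40 other methylation genes in green. Dashed lines mark 2-fold and dotted lines the floor of each sample. Dnmt3l lies left of the parental floor, Dnmt3b just right of it, both far above the 2-fold line, and Mbd2 lies below the lower line with both values above the floor.

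Of the de novo family no measured gene other than Dnmt3b and Dnmt3l was available, and Dnmt3a and Dnmt3c were not analysed here. For the rest of the pathway, 40 of 70 listed genes were measured and 39 were above the floor in at least 1 sample. Of those 39, 16 (41.0%) were 2-fold or more higher in the stem cells and 4 (10.3%) were lower, beside 22.1% and 22.6% of all genes. Their median log2 difference was 0.69, and over all 11484 genes it was 0.07. The 3 chosen genes are in none of these counts. A 2-fold difference is no larger than the SD of a single probe. Past 4-fold, 6 of these genes were higher and 1 was lower, beside 7.52% and 10.3% of all genes that were not dim. For each list counted below, the 2-fold shares of 22.1% and 22.6% are the background.

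Of 6 measured maintenance genes, 4 were 2-fold or more higher in the stem cells, 1 was lower and 1 was under 2-fold, with a median log2 difference of 1.50. Dnmt1, the maintenance methyltransferase, was at 607 and 2068, a log2 difference of 1.77. Uhrf1, which recognises hemimethylated DNA and recruits DNMT1, was at 4349 and 20184, a difference of 2.21. Its paralog Uhrf2 went the other way, at 4296 and 2056, with -1.06. Hells, a chromatin remodeller needed for methylation of repeats, was at 1299 and 10798, which is 3.05 and the largest difference of this list. Dmap1, a DNMT1-associated protein, was at 3280 and 7744 (1.24), and Usp7, a deubiquitinase of DNMT1 and UHRF1, at 575 and 1018 (0.83). The differences of Uhrf2 and Dmap1 were near the probe SD. Uhrf1, Uhrf2, Hells, Dnmt1 and Dmap1 were read by 1 probe each, and the 2 probes of Usp7 gave 0.28 and 1.37.

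Genes of demethylation and base excision repair were higher in part, 4 of 7 measured with none lower (median 1.05). TET enzymes oxidise methylcytosine, and Tet3, the one measured, was at 286 and 251, under 2-fold. Tdg, the glycosylase that removes the oxidised bases, was at 80.7 and 104, near the floor in both samples. The genes past 2-fold were repair genes of broader use. Xrcc1, a repair scaffold, was at 1520 and 5812, a log2 difference of 1.94. Mbd4, a glycosylase with a methyl-CpG binding domain, was at 226 and 757 (1.75). Parp1, which senses strand breaks, was at 3266 and 8766 (1.42), and Apex1, the abasic site endonuclease, at 13573 and 28038 (1.05). Idh2, a mitochondrial enzyme that makes the TET cosubstrate, was at 10284 and 14161 (0.46).

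Genes listed with Mbd2 as methyl-CpG readers went both ways. Whether the protein of each one, Mbd3 and Mbd6 included, prefers methylated CpG was not examined here. Mbd3, the closest paralog, which takes the place of MBD2 in a separate form of NuRD, was at 6478 and 11186, 1.73-fold higher and under the 2-fold rule. Mbd6 was at 940 and 1457 (1.55-fold higher), and Mbd4 was higher as given above. Zbtb33, which encodes the zinc finger reader Kaiso, was lower like Mbd2, at 770 and 135, 5.71-fold lower. Its relative Zbtb38 was dim, under the floor in both samples. Of the 5 listed genes measured besides Mbd2, 1 was higher, 1 lower and 1 dim, with a median log2 difference of 0.63.

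Subunits of NuRD, the complex that MBD2 recruits, were mostly within 2-fold. Of 9 measured besides Mbd2, 3 were higher and none was 2-fold lower (median 0.30). Beside these stand 22.1% and 22.6% of all genes that were not dim. The remodelling ATPase gene Chd4 was at 2750 and 5700, a log2 difference of 1.05. Chd5, a related ATPase, was at 95.6, just above the floor, and 352 (1.88). Gatad2a, which joins the MBD and CHD subunits, was at 730 and 1898 (1.38), with 0.98 and 1.77 at its 2 probes. Gatad2b was at 213 and 136 (-0.65) and Mta2 at 11800 and 7691 (-0.62), the lowest differences of the list. Mta1 (592 and 586) and Rbbp7 (693 and 854) differed by less than 2-fold. The mean of Mta3 (661 and 784) hid a disagreement, since its 2 probes gave -1.21 and 1.70. Outside the complex, Prmt5, an arginine methyltransferase reported to associate with MBD2, was at 4700 and 20932 (2.15). Sin3a, a corepressor scaffold, was at 1273 and 3350 (1.40), and Tacc3, a spindle protein, at 4037 and 1760 (-1.20).

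**Figure D3:**
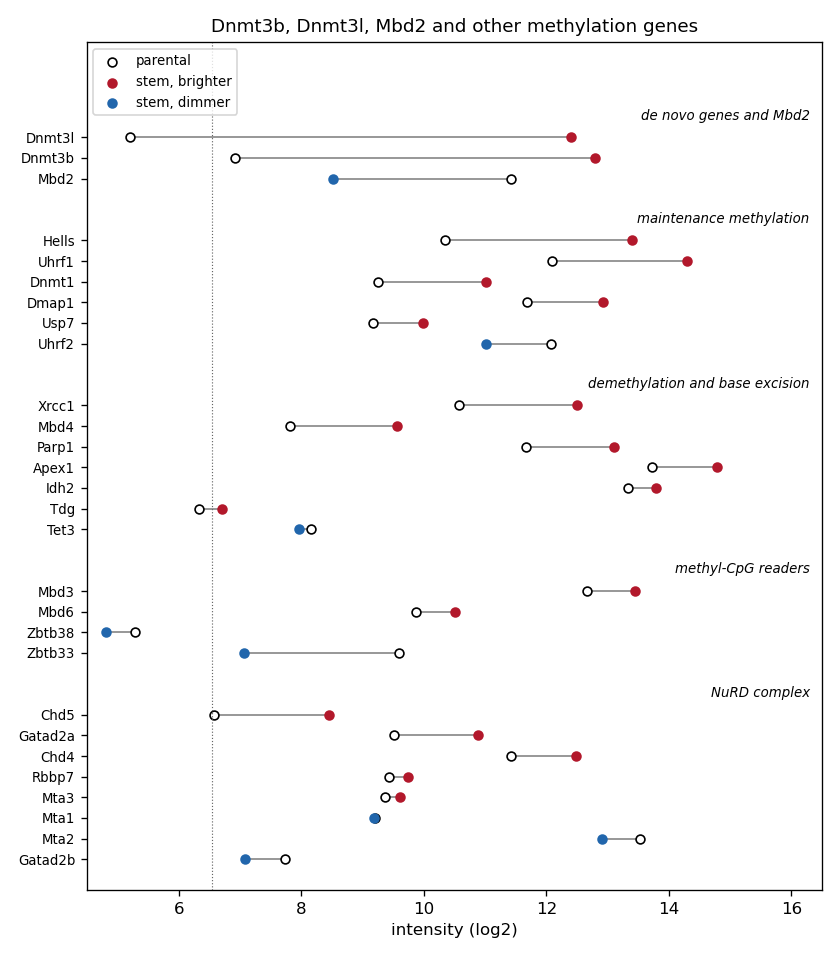
Log2 intensity of Dnmt3b, Dnmt3l, Mbd2 and the other measured genes of 4 lists in the parental sample (open circles) and the stem sample (red where brighter, blue where dimmer); a gene on several lists is drawn in the first, and the dotted line is the parental floor. The lines of Dnmt3l and Dnmt3b are the longest, with log2 differences of 7.20, from a parental value under the floor, and 5.87, and Mbd2 and Zbtb33 have the longest lines towards dimmer, with -2.90 and -2.51.

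Guides and partners of de novo methylation went both ways. The list is mixed: some of its genes bring the enzymes to chromatin or set the histone marks they read, and others, such as Kdm2b, do not. Of 15 measured, 5 were higher and 2 lower (median 0.60), beside 22.1% and 22.6% of all genes that were not dim. Kdm2b, which binds unmethylated CpG islands, was the highest at 1201 and 7809, a log2 difference of 2.70. Suv39h2, an H3K9 methyltransferase, was at 102 and 538 (2.41), and Trim28, the corepressor of KRAB zinc finger proteins, at 5966 and 25873 (2.12). The lower members were Nsd2, an H3K36 methyltransferase, at 928 and 314 (-1.56), and Smchd1, a chromatin protein of X inactivation, at 351 and 159 (-1.14). The 2 probes of Nsd2 gave -1.47 and -1.65. Kdm1b was at 379 and 200.4 (-0.92).

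Germline genes, many of which are known to be kept silent by promoter methylation in somatic cells, were listed because de novo methylation acts on them. Of 18 measured, 10 were higher, 1 was lower and 4 were dim. Beside these stand 22.1% higher and 22.6% lower among all genes that were not dim. When the floor replaced lower values, 8 of the germline genes were higher, beside 2000 of the 9766 genes that were not dim. Rhox5, an X-linked homeobox gene, was at 152 and 13355, 87.8-fold higher. Tdrd12, a Tudor gene of the piRNA pathway, was at 40.6 and 2928, at least 31.2-fold higher. Rhox9 was at 69.0 and 1814, at least 19.3-fold higher. Taf9b, a transcription factor subunit gene, was the lower one at 499.8 and 210 (2.38-fold). It was above the floor in both samples, and whether it belongs among silenced germline genes was not examined here. Hormad1 and Tdrd1, genes of meiosis and of the piRNA pathway, passed 2-fold only through parental values under the floor, since their stem values were 142 and 94.2. Methylation itself was not measured. Of 3 measured genes from a list linked to low methylation in naive cells, Prdm14, a repressor of Dnmt3b and Dnmt3l, was at 45.9 and 486, at least 5.19-fold higher. Zfp42 was at 30.8 and 1520, at least 16.2-fold higher, and Nanog at 77.7 and 94.7, close to the floor.

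The genes with intensities most like those of each member were found by Euclidean distance over the log2 values of the 2 samples, which describes probe brightness and not abundance. The 5 nearest to Dnmt3b were Acsbg3 (distance 0.05), Ooep (0.39), Bex1 (0.40), Zfp296 (0.51) and Nup210 (0.55). The nearest to Dnmt3l were Spint1 (0.17), 2410003L11Rik (0.70), Mreg (0.72), Fam169a (0.76) and Galnt6 (0.80). All of these 5 were under the floor in the parental cells, as Dnmt3l was, which follows from how they were chosen. Those nearest to Mbd2 were Mylk (0.07), Ndrg1 (0.10), Hspb6 (0.12), Lgmn (0.13) and Zeb1 (0.13). Zeb1, a transcription factor of mesenchymal cells, was at 2692 and 402, and Mylk, the myosin light chain kinase gene, at 2681 and 352.

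The closest measured genes along the chromosome, 3 on each side in the order of the RefSeq gene table, were looked at after the values of the 3 genes were known. Aire, which encodes the autoimmune regulator, is annotated as overlapping Dnmt3l, and it was at 28.4 and 671, at least 7.16-fold higher. On the other side of Dnmt3l, Icosl, a costimulatory ligand gene, was at 83.6, under the floor, and 938, a log2 difference of at least 3.32. The stretch of the locus that each probe reads was not analysed here, so the signals of Aire and Dnmt3l are uncertain where the genes overlap. Further out, Cfap410 (246 and 114) and Agpat3 (1134 and 264) were 2.16-fold and 4.30-fold lower, and Trpm2 and Pwp2 differed by less than 2-fold. Beside Dnmt3b, Nol4l (483 and 1312) and Asxl1 (521 and 1409) were 2.72-fold and 2.70-fold higher, far less than Dnmt3b. Mapre1, the nearest on its other side, was at 1992 and 2373. Beside Mbd2, Dcc, a netrin receptor gene, was at 179.6 and 33.7, at least 1.92-fold lower, whereas Smad4 was at 2088 and 2037 and Rab27b was 2.24-fold higher (3697 and 8284).

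**Figure D4:**
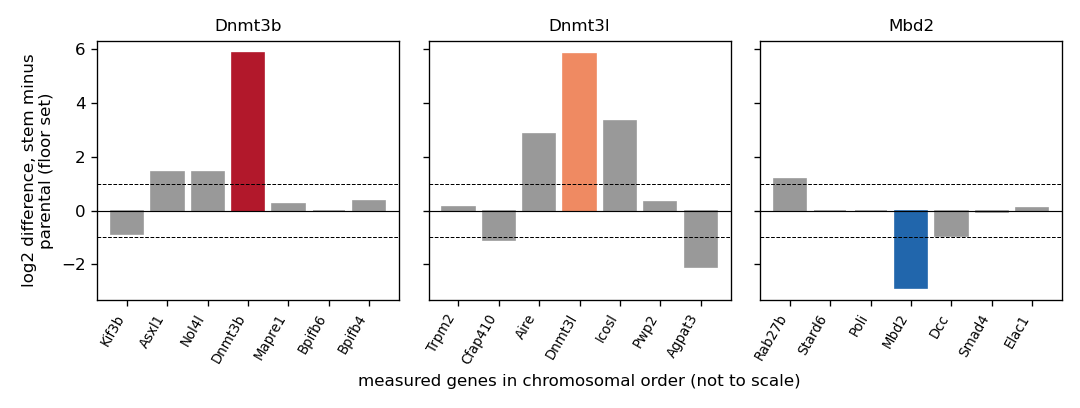
Log2 difference (stem minus parental, y axis, with values under the floor replaced by it, so that these bars are bounds) of Dnmt3b, Dnmt3l and Mbd2 (coloured) and of the 3 nearest measured genes on each side (grey; flat where both values were under the floor), in chromosomal order and not to scale; dashed lines mark 2-fold. Aire (2.84) and Icosl (3.32) stand beside Dnmt3l (5.85), and the highest neighbour of Dnmt3b is at 1.44.

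Markers of cell types differed between the samples along with these genes. For comparison, 22.1% of all genes that were not dim were 2-fold or more higher in the stem cells and 22.6% were lower. Of 9 measured pluripotent cell markers 8 were higher in the stem cells, and the other, Nanog, was at 77.7 and 94.7, close to the floor. The summed intensity of the 9 was 769.8 and 124119, of which Esrrb alone gave 40.6 and 33968. In the parental cells 7 of the 9 were under the floor, so much of that sum cannot be told from background. Pou5f1 was at 37.8, under the floor, and 639. All 3 measured fibroblast markers were lower, with sums of 75617 and 351. Of 9 macrophage and leukocyte markers 5 were lower and 1 was higher, with sums of 8326 and 13331, to which Laptm5 alone contributed 1287 and 12204. Of 6 germ cell markers 5 were higher, or 4 when the floor replaced lower values, with sums of 472 and 5671. Among these markers 4 were under the floor in the parental cells. Tdrd12 alone gave 40.6 and 2928 of these sums, and Ddx4, at 191 and 258, was under 2-fold. Ddx4, Tdrd1, Piwil2 and Tdrd12 are also among the germline genes counted above. Trophoblast markers were higher in 3 of 4, with sums of 819 and 4167, of which Krt8 alone gave 210 and 2711. The other, Gata3, was at 155 and 210, under 2-fold. Of 5 extraembryonic endoderm markers 2 were lower and 2 dim, with sums of 29515 and 6983, of which Sparc alone gave 27358 and 6212. No marker was at 0. In these bulk samples fewer cells of a type and less RNA per cell cannot be told apart, and the part of cell composition in the values of Dnmt3b, Dnmt3l and Mbd2 was not tested. All 3 genes were read by probes of 1 class of identifiers (PH_mM), whose median log2 difference was 0.16, against -0.02 and -0.14 in the other classes.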

How the data were processed

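Dye-labelled (Cy5) amplified RNA was hybridised to a 1-colour Phalanx mouse OneArray, per the labels. The authors deposited intensities on a linear scale, with medians of 304 and 305 that leave the samples comparable in scale; how they were normalised, the scanner and the background correction are unstated (not given in the sources used here). Values ran up to 65495. Here they were brought to log2 without further normalisation, and probes of a gene were averaged. Of 13989 probes 12380 had 1 symbol, 12364 of them brought up to date by Entrez identifier with RefSeq (GRCm38.p6), and 1609 had none. With 1 sample per group no test was made, and the precision is limited by the number of arrays.

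The members and lists were chosen with earlier results of these data known. Named were every measured gene of the maintenance, demethylation and reader lists, and up to 3 genes each way of other lists past 2-fold. Subunits near 2-fold and the 5 nearest patterns of each member were also named. Chromosomal neighbours, Kdm1b, Mat2b, Laptm5, Sparc, Hormad1 and Tdrd1 were added after values were seen. Other named genes, among them Pou5f1, Nanog, Ddx4 and Gata3, also lie outside these rules. The computation was tested on simulated data. Python 3.11.15, pandas 2.3.3 and statsmodels 0.14.6 were used.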

Additional observations from a re-analysis of the deposited data

How the results depend on the processing

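Over 9 alternatives the log2 difference of Dnmt3b ranged from 5.38 to 5.87 and that of Mbd2 from -3.06 to -2.74. The difference of Dnmt3l moved by more than the probe SD, to 5.98 with an offset of 50 and to 5.85 when the floor replaced lower values, because its parental value lay under the floor. With a 4-fold in place of the 2-fold rule, 6 methylation pathway genes were higher and 1 was lower, and 734 and 1010 of all genes. Median centring, quantile normalisation, lowess centring (span 0.3), the brightest probe per gene, floors at the 10th percentile and at the median, and centring of each probe class, chosen after seeing the data, kept the pathway counts between 14 and 19 higher and between 3 and 5 lower. No difference changed sign. No paired analysis was possible because each group had 1 sample. Values near the floor limit Dnmt3l and, in the parental cells, Dnmt3b.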

Other observations

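Genes listed around the methyl donor S-adenosylmethionine, which DNMT3B uses, had large differences both ways. Some take part in its supply, and others, such as Gnmt and Nnmt, consume it. Of 10 measured, 5 were higher in the stem cells and 2 were lower, beside 22.1% and 22.6% of all genes that were not dim. Their median log2 difference was 1.16, or 0.64 when the floor replaced lower values. Shmt1, a serine hydroxymethyltransferase of one-carbon metabolism, was at 593 and 4360, 7.35-fold higher. Gnmt, a glycine methyltransferase, was at 35.6, under the floor, and 199, at least 2.12-fold higher. Ahcy, which clears the methyltransferase inhibitor S-adenosylhomocysteine, was at 1197 and 5945, 4.97-fold higher. Nnmt, which consumes S-adenosylmethionine to methylate nicotinamide, was at 3512 and 115, 30.6-fold lower, and Ahcyl1 was at 7449 and 2659, 2.80-fold lower. Mat2b, a regulatory subunit of the synthase, was at 2016 and 1150 and stayed under 2-fold. The lower value of Nnmt stands beside the lower fibroblast markers of the same sample, and cell composition was not tested as its source.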
